A study of Mus musculus with 8 samples.

Results

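The regions described here are the c-Jun peaks of kEpiSCs that shared no base with a c-Jun peak of EpiSCs. They were chosen by this lack of overlap between the deposited peak lists, and 1457 of 6032 kEpiSC peaks (24.2%) met the rule. EpiSCs are mouse epiblast stem cells, which are pluripotent cells of the primed state, and kEpiSCs are EpiSCs that carry a Klf4 transgene. The data comprise 2 libraries of c-Jun ChIP and 2 of input DNA per line. The labels give the strain CBA/CaJ X C57BL/6J for the EpiSC c-Jun libraries and none for the others. The study's methods cross females of a strain not in that label with male OG2 mice, which carry an Oct4-GFP reporter. All cells were kept in a medium with Activin A and bFGF and received no other treatment according to the labels. The study's text drives Klf4 from a CAG promoter in one place and from a lentiviral vector with drug selection in another, and how many clones the line holds was not stated. The antibody field of the labels reads c-Jun, while the protocol text names an H3K27ac antibody. One peak list was deposited for each line, so the peaks have no replicate error, and a difference between the lists cannot be told apart from a difference between libraries.

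c-Jun is a subunit of AP-1, a family of dimeric leucine zipper transcription factors that pair Jun proteins with Fos, ATF or other Jun proteins. AP-1 dimers bind the palindrome-like site TGAGTCA, read as TGACTCA on the other strand, and Jun-ATF dimers also bind the cAMP response element, CRE, with the letters TGACGTCA. AP-1 answers growth factor and stress kinases, and much of its binding lies in enhancers rather than at promoters. Klf4 is a zinc finger factor of naive pluripotency that binds CACCC boxes and GC-rich sequence. The comparison of the lists asks where a c-Jun peak was called in primed cells with the Klf4 transgene and no overlapping one in those without it. A peak that was not called does not show that c-Jun was absent.

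The distance to the closest EpiSC peak split the 1457 kEpiSC-only peaks into 253 under 1 kb away, 424 at 1 to 10 kb and 780 over 10 kb away. The median distance was 11798 bp and the largest was 2560070 bp. The 18 members with the highest scores, 6 in each distance class, were read over 61 bases around the summit on GRCm38, and 6 of these windows held an exact AP-1 site. The first sequences are those 6, shown for their site, which is in capitals. The gene whose TSS lay closest to each peak gives the name, and bases are read 5′ to 3′ on the plus strand.
Phlpp1: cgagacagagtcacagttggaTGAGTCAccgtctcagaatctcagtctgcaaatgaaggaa
Agfg1: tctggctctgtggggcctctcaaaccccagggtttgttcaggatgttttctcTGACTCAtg
Tuba1c: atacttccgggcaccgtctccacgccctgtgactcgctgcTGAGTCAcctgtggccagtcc
Inpp5f: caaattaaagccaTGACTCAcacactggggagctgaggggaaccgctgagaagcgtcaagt
Anxa5: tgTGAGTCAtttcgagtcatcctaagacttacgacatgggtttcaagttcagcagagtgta
Vcan: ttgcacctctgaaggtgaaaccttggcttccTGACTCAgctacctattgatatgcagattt

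The Phlpp1 window spanned chr1:106408060-106408120 and the Agfg1 window chr1:82834756-82834816. The Tuba1c window lay at chr15:99030801-99030861, inside the first intron of a tubulin gene. Over 10 kb from any EpiSC peak were the windows at chr7:128672031-128672091 (Inpp5f), chr3:36349233-36349293 (Anxa5) and chr13:89661831-89661891 (Vcan). Inpp5f encodes an inositol phosphatase, Anxa5 a phospholipid-binding annexin and Vcan the matrix proteoglycan versican. The Phlpp1 and Anxa5 peaks lay between genes, 236215 and 126637 bp from the TSS of the named gene. The next sequences are the highest-scoring members at 1 to 10 kb and over 10 kb from an EpiSC peak without an AP-1 site anywhere in the central 200 bp, shown because 779 of the 1457 members had none there. No capitals are set in them.
Rab3gap2: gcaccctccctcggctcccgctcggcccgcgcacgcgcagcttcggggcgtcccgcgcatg
Rnf115: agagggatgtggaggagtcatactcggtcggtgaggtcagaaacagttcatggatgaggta

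The Rab3gap2 window, chr1:185204017-185204077, was GC-rich promoter sequence of a subunit of a Rab regulator. The Rnf115 window, chr3:96757353-96757413, lay in an intron of a ubiquitin ligase gene. The last sequences are the 3 highest-scoring of 22 members over 10 kb from an EpiSC peak that held a KLF site and no AP-1 site. The KLF site, GGGTGTGG or GGGCGTGG on either strand, is in capitals, and the windows are centred on the site closest to the summit.
Emc7: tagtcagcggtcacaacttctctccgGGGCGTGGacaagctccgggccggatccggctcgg
Myadm: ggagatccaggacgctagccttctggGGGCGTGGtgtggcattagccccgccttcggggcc
Neurl1a: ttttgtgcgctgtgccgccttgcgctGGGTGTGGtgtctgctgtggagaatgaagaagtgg

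The Emc7 window, chr2:112454906-112454966, and the Myadm window, chr7:3290392-3290452, were at promoters and held the GGGCGTGG form. The Neurl1a window, chr19:47197375-47197435, was in an intron and held the GGGTGTGG form. The site lay 6 bases from the summit in Neurl1a and 73 bases away in Myadm, outside the called peak.

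kEpiSC-only peaks were weaker and narrower than the peaks shared with EpiSCs. A weak peak is easier to miss in the other list, so the rule bears on these values and they are given without a test. The fold is the authors' enrichment of ChIP over background at the summit, with 1 added to each. Its median was 6.15 in kEpiSC-only peaks (range 3.13 to 15.9) and 7.57 in the 4575 shared ones. The number of ChIP reads at the summit was solved from the fold and the p-value, and its median was 11 in members (range 7 to 28) against 16 in shared peaks. Median width was 157 bp against 190 bp. Of the peaks in the lowest decile of fold, 38.4% were kEpiSC-only, and in the highest decile 1.15% were. EpiSC peaks had a median of 10 reads at the summit, with 5 reads the fewest in a called peak.

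**Figure D1:**
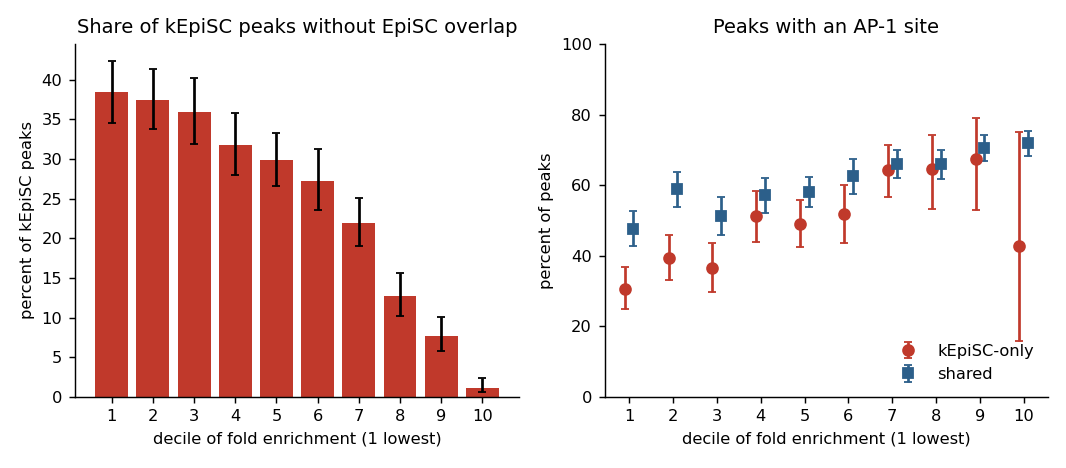
Left, percent of kEpiSC peaks without EpiSC overlap in each decile of fold enrichment, falling from 38.4% to 1.15%. Right, percent of kEpiSC-only (circles) and shared (squares) peaks with an AP-1 site in the central 200 bp, where the points lie apart in the lower deciles and within each other's intervals in deciles 7 to 9. Bars are 95% Wilson intervals (counting error only).

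The edge of the rule cut through neighbouring peaks. The members closest to an EpiSC peak touched it or lay 1 bp away, at Itpkb, Kcnj5 and Itgb6, with folds of 5.06, 6.70 and 4.88. The kEpiSC peaks with the smallest overlaps, at Zfp131, Ofcc1 and Tasor, shared 1, 2 and 4 bp with an EpiSC peak and had folds of 4.88, 6.89 and 6.85. Only 5 members lay within 10 bp of an EpiSC peak, and 11 shared peaks overlapped by at most 10 bp. Of the 253 members under 1 kb from an EpiSC peak, 176 (69.6%) lay beside an EpiSC peak that no kEpiSC peak overlapped. For the other 77 the neighbouring EpiSC peak was itself matched in kEpiSCs. The median gap in this class was 389 bp.

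AP-1 sites were centred on the members' summits but were less common than in shared peaks. In a 200 bp window on the peak centre, 678 of 1457 kEpiSC-only peaks held the exact site, or 46.5% (95% Wilson interval 44.0 to 49.1). It was found in 3.47% of 2914 windows of the same length 2 kb from these peaks. Shared peaks held it in 62.4%, a difference of −15.8 percentage points (−18.7 to −12.9, Fisher's exact test, two-sided, p = 2.81e-26, adjusted over 21 motifs 5.91e-25). The p-values compare peaks within the lists, cover counting error only and say nothing of replicate cultures. Within deciles of fold, which moves with both the rule and the site, the difference was −10.7 points by the Mantel-Haenszel estimate (−13.7 to −7.63, Mantel-Haenszel chi-square p = 4.78e-12). It was −4.44 points in the upper 4 deciles and did not pass Fisher's exact test there (p = 0.138). Without peaks at promoters the difference was −11.9 points (Fisher's exact p = 6.65e-14). Without promoters and within deciles of fold it was −7.56 points (−10.8 to −4.33, Mantel-Haenszel chi-square p = 3.89e-06).

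**Figure D2:**
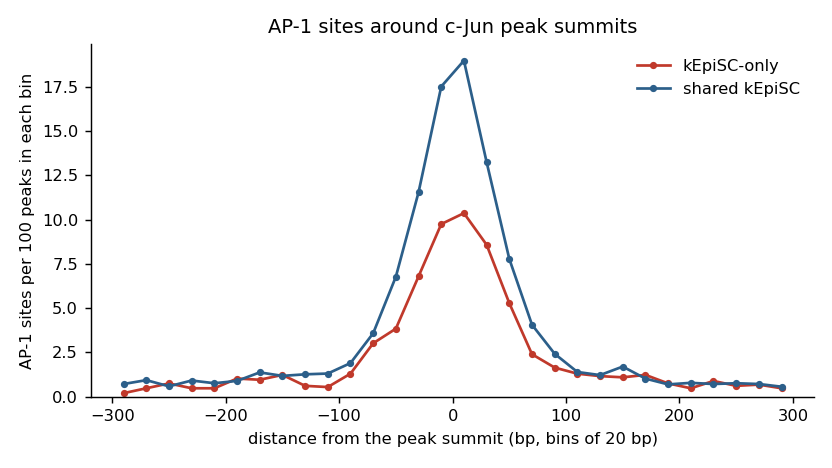
AP-1 sites per 100 peaks (vertical) in bins of 20 bp by distance from the summit (horizontal) for kEpiSC-only and shared kEpiSC peaks. Both curves peak at the summit, at 10.4 sites per 100 kEpiSC-only peaks and 19.0 per 100 shared peaks, and level off beyond 200 bp.

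Among peaks with a site, the median distance from site to summit was 27 bp in members and 20 bp in shared peaks. A second site was present in 84 members (5.77%) and in 16.2% of shared peaks. It was present in 5.49% of the EpiSC peaks that overlapped no kEpiSC peak. In members the commonest site with its neighbouring bases was CTGAGTCAT, 12.5% of 768 sites (10.3 to 15.0), with CTGAGTCAC at 12.4%. In shared peaks CTGAGTCAT made up 11.2% of 3698 sites (10.2 to 12.2) and CTGAGTCAC, the commonest there, 12.8%. The interval of CTGAGTCAT in members contained its share in shared peaks. With at most 1 mismatch allowed, 78.5% of members and 88.9% of shared peaks held a site, but so did 48.2% of windows 2 kb away. In the 779 members without an exact site, some of the 1-mismatch forms stood above the windows 2 kb from the same members. TGCGTCA, or TGACGCA on the other strand, was in 4.75% of them (3.47 to 6.48) and in 0.321% of the windows. TTAGTCA, or TGACTAA, was in 9.88% against 1.93%.

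Over all members the share with an AP-1 site rose with distance from the EpiSC peaks. It was 32.8% in members under 1 kb away (27.3 to 38.8), 45.3% at 1 to 10 kb (40.6 to 50.0) and 51.7% over 10 kb away (48.2 to 55.2). The members over 10 kb away exceeded those under 1 kb by 18.9 points (11.9 to 25.4, Fisher's exact test, p = 1.61e-07, adjusted over 3 pairs 4.84e-07). Both neighbouring steps also passed Fisher's exact test, with adjusted p = 0.0349 between over 10 kb and 1 to 10 kb and 0.00238 between 1 to 10 kb and under 1 kb. Median fold moved with distance as well, from 6.08 under 1 kb to 6.45 over 10 kb, and within deciles of fold the difference was 15.997 points (Mantel-Haenszel chi-square p = 6.36e-06). Outside promoters the members over 10 kb away had a site in 59.1% and those under 1 kb in 34.7% (exact p = 6.04e-10). At promoters the order was the opposite, 18 of 129 (14.0%) over 10 kb away and 8 of 37 (21.6%) under 1 kb, and the difference of −7.67 points (−24.0 to 4.75) did not pass (exact p = 0.305).

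Of the 16166 EpiSC peaks, 11593 overlapped no kEpiSC peak (EpiSC-only). Set against these, the kEpiSC-only peaks had AP-1 sites more often in the unstratified comparison. The shares were 46.5% and 40.7%, a difference of 5.88 points (3.18 to 8.60, Fisher's exact test, p = 2.00e-05). Within strata of solved reads at the summit the difference was −1.22 points (−4.00 to 1.55) and did not pass (Mantel-Haenszel chi-square p = 0.388). A read did not weigh the same in both lists, so these strata do not equalise the depth of the lines. Within 50 bp of the summit it was 2.50 points (exact p = 0.0599).

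Other motifs separated the members from shared peaks by small margins. Of 21 motifs searched on both strands, 8 passed an adjusted p of 0.05, with 5 less common and 3 more common in members, and 6 passed within deciles of fold. The exceptions there were the Maf-type site (adjusted Mantel-Haenszel chi-square p = 0.0707) and the ETS motif (0.0508). The Maf-type extended site GCTGAGTCA, which contains the AP-1 site, was in 5.70% of members and 8.31% of shared peaks (adjusted exact p = 0.00445). The TEAD site GGAATGT, bound by the partners of YAP, was in 5.08% and 7.52% (adjusted exact p = 0.00445). By distance it was in 8.30% of members under 1 kb from an EpiSC peak, 4.48% at 1 to 10 kb and 4.36% over 10 kb, so the nearest class was not lower than shared peaks. The T-box site AGGTGTGA was in 1.03% and 2.34% (adjusted exact p = 0.00445). The windows 2 kb from members held the TEAD site in 2.75% and the T-box site in 1.13%. EpiSC-only peaks held the Maf-type site in 4.34%, the TEAD site in 5.34% and the T-box site in 1.51%. These were not tested against the members. The TEAD difference shrank to −0.60 points among peaks at or above the median score, where it did not pass (exact p = 0.707). The Maf-type difference among those peaks was −1.78 points and did not pass either (exact p = 0.240).

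KLF sites as a whole did not differ detectably. Either form was present in 67 members (4.60%) and in 4.92% of shared peaks, a difference of −0.32 points (−1.49 to 1.02, Fisher's exact test, p = 0.674). The share in windows 2 kb away was 3.81%. The forms went in opposite directions. GGGTGTGG was less common in members, 2.33% against 4.04% (adjusted exact p = 0.00644), and GGGCGTGG more common, 2.26% against 0.918% (adjusted exact p = 0.00192). EpiSC-only peaks held GGGTGTGG in 3.17% and GGGCGTGG in 1.82%. Windows 2 kb from members held them in 2.61% and 1.27%. The lower share of GGGTGTGG did not pass within 50 bp of the summit (−0.76 points, exact p = 0.0916). Nor did it among peaks at or above the median score (−1.87 points, exact p = 0.0706). Outside promoters GGGCGTGG was in 1.05% of members and 0.763% of shared peaks, and the difference did not pass the test (exact p = 0.372). The octamer ATGCAAAT, the site of Oct4, was in 1.17% and 1.11% (adjusted exact p = 0.887).

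CTCF and ETS motifs were more common in members than in shared peaks. EpiSC-only peaks held the CTCF motif in 1.31% and the ETS motif in 1.24%, and these were not tested against the members. CTCF, the insulator protein, had a motif in 21 members (1.44%), in 0.503% of shared peaks and in 0.275% of the windows 2 kb away (adjusted exact p = 0.00431). Of these 21 members, 7 also held an AP-1 site and none was at a promoter. Among peaks at or above the median score the CTCF difference was 0.65 points and did not pass (exact p = 0.0919). The member with the highest score among them was in the first intron of Prss35, at chr9:86746350-86746487, with a fold of 9.96. Another lay in the first intron of Ccnd3, which encodes cyclin D3, with a fold of 7.86, a CTCF match and 1 AP-1 site. The ETS motif CCGGAAGT was in 1.58% of members and 0.721% of shared peaks (adjusted exact p = 0.0120). Outside promoters its shares were 0.485% and 0.578%. The CRE was in 2.61% and 2.34% (adjusted exact p = 0.725) and in 0.206% of windows 2 kb away.

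**Figure D3:**
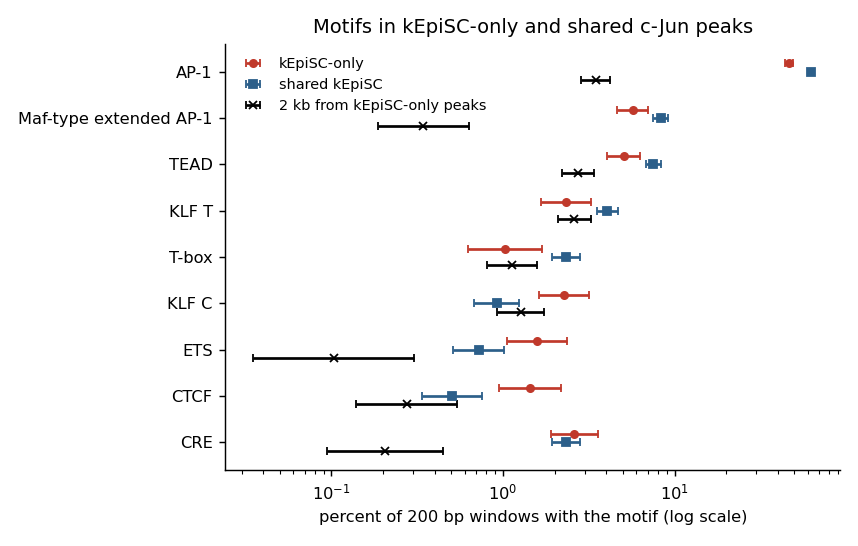
Percent of 200 bp windows with each motif (log scale) for kEpiSC-only peaks, shared kEpiSC peaks and windows 2 kb from the kEpiSC-only peaks, with 95% Wilson intervals. KLF T is GGGTGTGG and KLF C is GGGCGTGG. AP-1 stands at 46.5%, 62.4% and 3.47%, whereas ETS, CTCF and KLF C lie higher in kEpiSC-only than in shared peaks.

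Promoters held a larger part of the kEpiSC-only peaks than of the shared ones. A promoter was taken as 1000 bp upstream to 100 bp downstream of a curated RefSeq TSS. The centres of 219 members (15.0%, 13.3 to 17.0) and 249 shared peaks (5.44%) were at promoters, a difference of 9.59 points (7.71 to 11.6, Fisher's exact test, p = 7.26e-29, adjusted over 3 locations 2.18e-28). Within deciles of fold the difference was 7.90 points (Mantel-Haenszel chi-square p = 1.15e-18), and among peaks at or above the median score it was 4.04 points (Fisher's exact p = 0.000606). EpiSC-only peaks were at promoters in 11.6%. Gene bodies held 46.4% of members and 48.9% of shared peaks (adjusted exact p = 0.0978), and 38.6% against 45.6% were intergenic (adjusted exact p = 3.35e-06). Among peaks at or above the median score the intergenic difference was −3.80 points and did not pass (exact p = 0.140). By distance class, promoters held 14.6%, 12.5% and 16.5% of the members from the nearest class to the farthest. Over all members, 632 centres were in introns, 62 in 5′ untranslated regions, 49 in coding exons and 10 in 3′ untranslated regions.

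**Figure D4:**
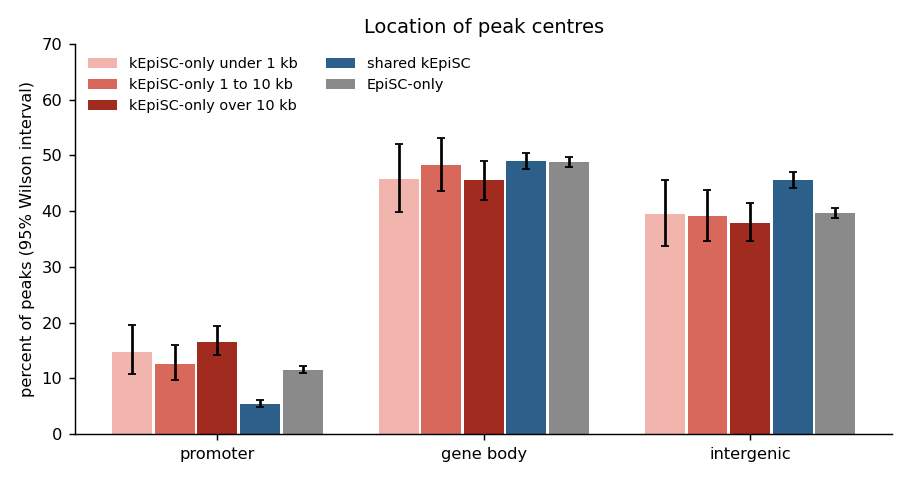
Percent of peak centres at promoters, in gene bodies and between genes for the 3 distance classes of kEpiSC-only peaks, shared kEpiSC peaks and EpiSC-only peaks, with 95% Wilson intervals. Promoter shares of 12.5% to 16.5% in the kEpiSC-only classes stand above the 5.44% of shared peaks.

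Promoter members mostly lacked an AP-1 site. The site was in 33 of 219 (15.1%) against 34.5% of the shared promoter peaks (Fisher's exact test, p = 1.38e-06), and in 3.14% of 25955 windows of 200 bp at the TSSs of all protein-coding genes. The CRE was in 8.22% of promoter members, 12.9% of shared promoter peaks (exact p = 0.133) and 2.16% of all TSS windows. GGGCGTGG was in 9.13%, 3.61% and 5.44% of these sets, and CCGGAAGT in 7.76%, 3.21% and 4.50%. Between members and shared promoter peaks these gave exact p = 0.0198 and 0.0382, unadjusted. EpiSC-only promoter peaks held the AP-1 site in 13.1%, the CRE in 5.52%, GGGCGTGG in 5.82% and CCGGAAGT in 6.27%. They were not tested against the promoter members. None of AP-1, CRE, KLF or ETS sites was present in 141 promoter members (64.4%). Promoter members had a median of 16 CpG dinucleotides in 200 bp, against 3 in members elsewhere, and a GC content of 64.5%. The median CpG number was also 16 in EpiSC-only promoter peaks and was 12 in shared ones. The median solved background of promoter members was 0.714 against 0.428 elsewhere, in units where a kEpiSC ChIP read counted as 0.775. In shared peaks it was 1.00 at promoters and 0.500 elsewhere, and in EpiSC-only peaks 0.890 and 0.573. The EpiSC-only values are not on the same scale. The part of background in the promoter share of members was not tested.

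The strongest promoter members belonged to genes of varied function. Rab3gap2 had the highest score, at chr1:185203980-185204130, with a fold of 11.4 and 28 reads, 8558 bp from an EpiSC peak. The peak upstream of Aebp2, a cofactor of the Polycomb repressive complex, had a fold of 10.99, 23 reads and an AP-1 site, 695 bp from an EpiSC peak. Emc7 (10.3, 21 reads) encodes a subunit of a membrane protein insertion complex. Nfyb, a subunit of the CCAAT-binding factor NF-Y, had a fold of 9.08 over its 5′ untranslated region. Map1lc3a, an autophagosome membrane protein gene, had a CRE and a fold of 7.97, 130 bp from an EpiSC peak.

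Over 10 kb from any EpiSC peak, the highest-scoring member was in intron 9 of Inpp5f, at chr7:128671740-128672233. It had the largest fold of all members, 15.9, with 28 reads and an EpiSC peak no closer than 48529 bp. Members with the closest TSS at Rnf115 (11.9), Ampd1 (12.1), the AMP deaminase of muscle, Sh3bp4 (11.7) and Anxa5 (11.7) followed. They lay 29775, 7232, 50250 and 126637 bp from these TSSs, and the last was intergenic. The Vcan member, in intron 13, had a fold of 11.3, an AP-1 site and a gap of 166324 bp. Among members at 1 to 10 kb were Tuba1c (10.97, AP-1 and KLF sites), Sema3b (10.6, a CRE 3601 bp upstream of a semaphorin gene), Pawr (10.3) and Fhod1 (10.5), a formin that bundles actin. The Pawr member lay 102685 bp from the Pawr TSS, in an intron of Gm36283. Under 1 kb, the top member was in intron 1 of Nek6, a mitotic kinase gene, with a fold of 11.98 and an EpiSC peak 231 bp away.

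Wide and clustered members were few. Only 7 members (0.480%) reached 500 bp, against 3.98% of shared peaks, and none of the 7 held an AP-1 site in its centre. The widest were 643, 618 and 547 bp wide. In that order, they lay 34543 bp upstream of the Insyn1 TSS, at the promoter of Klf3 and 91520 bp upstream of the Smad3 TSS. Smad3 encodes a mediator of Activin and TGF-beta signals. Of all members 1338 stood alone, 58 pairs lay within 10 kb of each other, and 1 run of 3 was found. That run covered Klf10, a TGF-beta-inducible Klf gene, with peaks at chr15:38299056-38299174, chr15:38299654-38299830 and chr15:38300659-38300920. Their folds were 3.69, 3.93 and 4.47, all below the median of members. Their solved backgrounds were 2.00, 0.833 and 2.00 against a median of 0.464.

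Genes near a kEpiSC-only peak were those with a TSS at most 10 kb from the centre of such a peak. Of 21000 protein-coding genes, 632 (3.01%) had one, and 4570 (21.8%) had an EpiSC peak at this distance. Of the 632 genes, 278 (44.0%) also had an EpiSC peak within 10 kb, and 116 (18.4%) also had a shared kEpiSC peak. The 116 and the next count have no share of all genes beside them and are not read as high or low. Having no EpiSC peak within 50 kb was seen for 132 (20.9%). Among the latter, the highest folds were at Cdh16 and Rrad, which share 1 peak (9.41), at Pcdh17, a protocadherin gene (8.87), at Zfp664 (8.49) and at Bmf, a proapoptotic BH3-only gene (8.32).

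**Figure D5:**
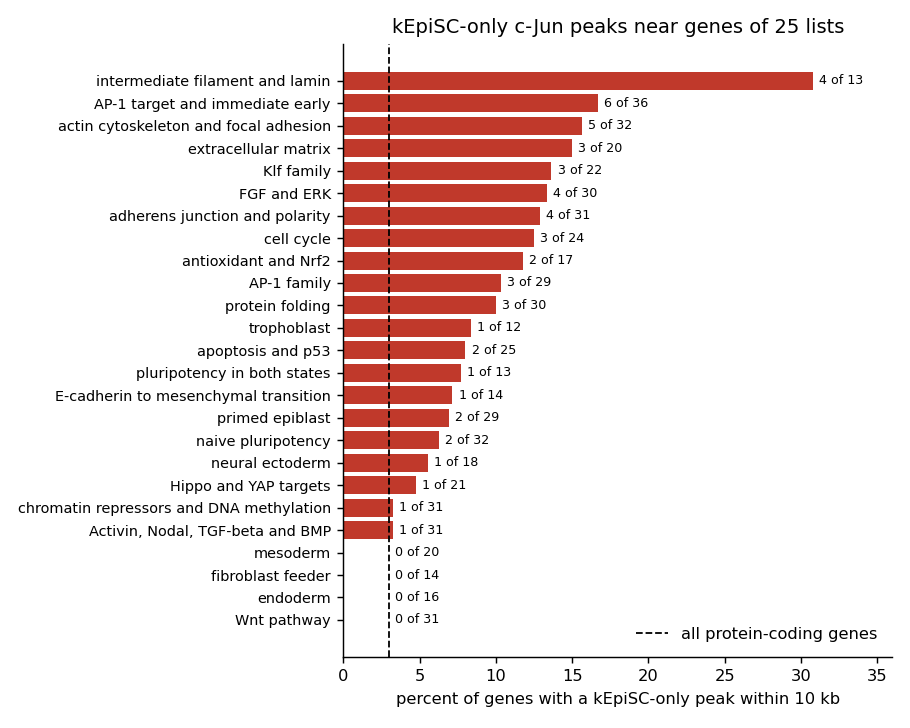
Percent of the genes of 25 lists with a kEpiSC-only peak within 10 kb of a TSS, with the counts beside the bars and the 3.01% of all protein-coding genes as a dashed line. The shares run from 0 of 31 Wnt pathway genes to 4 of 13 intermediate filament and lamin genes.

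Each of 25 gene lists was described by its count beside the 3.01% of all genes. A share above it was found for 21 lists, but 20 lists also had EpiSC peaks more often than the 21.8% of all genes, and the lists are short, with 12 to 36 genes. In all 46 different genes of these lists had a member, 32 of them with an EpiSC peak within 10 kb too. The median fold of the strongest member per gene was 5.79. Each count rests on at most 6 genes.

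Adhesion and cytoskeleton genes were among those with members. In the list of intermediate filament and lamin genes 4 of 13 had one. Lmna, encoding lamin A and C, had a fold of 5.61 with an AP-1 site, and Krt18 and Krt8, the simple epithelial keratin pair, had 5.56 and 5.54, the latter at the promoter. Of actin and focal adhesion genes 5 of 32 had one. Itga5, the fibronectin receptor subunit, had a peak in its 5′ untranslated region with an AP-1 and a KLF site and a fold of 7.09. Cnn1, a calponin of smooth muscle, had 6.69 and Src 6.45. Among adherens junction and polarity genes there were 4 of 31. F11r, a tight junction adhesion molecule, had the highest fold of any listed gene, 10.1, with AP-1 sites in its first intron. Nectin1 had 6.56 at its promoter, and Cdh3 had 4.52. Cdh1, the E-cadherin gene, had a promoter member with a fold of 4.23 and 10 reads, 32 bp from the TSS and 11355 bp from an EpiSC peak. Extracellular matrix genes with a member were Lamb1 (8.32), Thbs1 (7.86, AP-1 sites upstream of the gene) and Lamc1 (6.69), 3 of 20, all under 2 kb from an EpiSC peak.

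Genes on the AP-1 family list and known AP-1 targets held members of modest fold. The list also takes in leucine zipper genes outside the Jun, Fos and ATF groups, such as Crem and Nfe2l2. Of its 29 genes 3 had a member. They were Crem (6.69), a cAMP-responsive repressor and activator, Jdp2 (5.54), a Jun partner that represses, and Nfe2l2 (5.49), the antioxidant regulator Nrf2. None of these 3 held an exact AP-1 site. Jun itself had 2 EpiSC peaks and 2 shared kEpiSC peaks within 10 kb of its TSS, and no member closer than 28281 bp. Of AP-1 target and immediate early genes 6 of 36 had a member. Hbegf, the heparin-binding EGF-like growth factor, had the highest fold, 6.70, with 2 members and AP-1 sites in the stronger one. Ier2 followed with 5.98 and Lmna with 5.61. All 6 also had an EpiSC peak within 10 kb. Hmox1, heme oxygenase, was also on the antioxidant list, where 2 of 17 genes had a member.

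In the Klf family 3 of 22 genes had a member. Klf6 had a fold of 7.78, 920 bp from an EpiSC peak, Klf10 the run of 3 described above, and Klf3 the wide promoter peak with a fold of 4.38. Klf4 itself had 1 EpiSC peak and 1 shared kEpiSC peak within 10 kb, and no member closer than 654838 bp.

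Of the genes on the pluripotency lists 6.25% (naive), 6.90% (primed) and 7.69% (both states) had a member, against 3.01% of all protein-coding genes. On the naive list these were 2 of 32. Fbxo15, an Oct4 target, had a promoter member with a fold of 6.98. The member near Tdgf1, the Nodal coreceptor Cripto, had a fold of 6.02 and lay 235 bp from an EpiSC peak. That member was at the promoter of Lrrc2, 4860 bp from the Tdgf1 TSS. On the primed list 2 of 29 had one, Krt18 (5.56) and Fgf15 (4.92). No member lay within 10 kb of Nanog, Sox2, Esrrb, Dppa5a, Zfp42 or Fgf5. The nearest was 22775 bp away for Esrrb, in its first intron, with an AP-1 site and a fold of 6.76. For Nanog the distance was 120466 bp, for Sox2 204458 bp, for Dppa5a 75076 bp, for Fgf5 1142554 bp and for Zfp42 1694718 bp.

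Pou5f1, which encodes Oct4, had 2 members beside 14 EpiSC peaks within 10 kb. They lay at chr17:35501886-35502046 and chr17:35508444-35508771, with folds of 3.27 and 3.13, the latter the lowest of all members. Their solved backgrounds were 4.28 and 6.00, against a median of 0.464 in all members. Both lay under 1 kb from an EpiSC peak and neither held an AP-1 site. The cells carry an Oct4-GFP reporter according to the study, and its part in these peaks was not tested.

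Signalling, cell cycle and protein quality genes filled the remaining lists. The FGF and ERK list had 4 of 30, among them the kinase Map2k2 (6.45), with 2 members, and the growth factor Fgf15 (4.92). The cell cycle list had 3 of 24. These were Ccnd3 (7.86), Cdkn2a (7.33, at the promoter of the Ink4a and Arf tumour suppressor gene) and Wee1 (6.69). Protein folding genes with members were Cct7 (7.43), Ppib (5.49) and Hsp90ab1 (3.95, with an AP-1 site and a CRE at the promoter), 3 of 30. The Cct7 member lay in an intron of Smyd5, 7048 bp from the Cct7 TSS. The apoptosis and p53 list had Mcl1 (6.87) and Sesn1 (4.96), 2 of 25. One gene each was found on the lists of neural ectoderm (Msx1, 7.78, 1 of 18), trophoblast (Tead4, 4.38, 1 of 12), Hippo and YAP targets (Tead4, 1 of 21), chromatin repressors (Ehmt2, 5.602, 1 of 31), Activin and TGF-beta (Tdgf1, 1 of 31), epithelial to mesenchymal transition (Itgb4, 4.69, 1 of 14) and pluripotency of both states (Pou5f1, 1 of 13). Wnt pathway (0 of 31), mesoderm (0 of 20), endoderm (0 of 16) and fibroblast (0 of 14) genes had none.

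The share of kEpiSC peaks that were kEpiSC-only did not differ detectably between chromosomes after adjustment. On the 19 autosomes 20.6% to 27.3% of the kEpiSC peaks were kEpiSC-only (smallest adjusted p = 0.724, Fisher's exact test). On chromosome X 15 of 31 were, or 48.4% (32.0 to 65.2), which did not pass after adjustment over the chromosomes (exact p = 0.00483, adjusted 0.0966). The EpiSC list held 96 peaks on X. The X members had 7 to 16 reads and included the start of Suv39h1, a histone methyltransferase gene, the first exon of Xist, the noncoding RNA of X inactivation (chrX:103481234-103481395, fold 5.602, 9 reads, with an AP-1 site), and an intron of Amot (7.78), a Hippo pathway adaptor. The share of members that lay on X exceeded the share of shared peaks there by 0.680 percentage points, and by 0.123 points among peaks at or above the median score (adjusted exact p = 0.822).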

How the data were processed

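c-Jun was measured by ChIP-seq in EpiSCs and kEpiSCs, with 2 ChIP and 2 input libraries per line. Alignment by the authors used Bowtie2 and mm10, with multiply mapped reads dropped, and MACS called the peaks. Besides these, bcl2fastq, SAMtools and bedtools stand in the submitters' processing notes, without versions. The labels give reads of 50 bp and the study's methods a longer length. Each peak list is named with the first ChIP library of its line and may rest on it alone.

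The deposited lists give a score derived from the q-value, the fold enrichment (a ratio of ChIP to background with 1 added to each), the −log10 of the p-value and of the q-value, and the summit position. The authors' fold and p-value were solved for reads and background at the summit, which met the p-value within 0.01 in −log10 for 100% of peaks. In kEpiSCs a read counted as 0.775, and the median peak had 14 reads (7 to 67), in EpiSCs 10 (5 to 159). In EpiSCs a read counted as 1. Backgrounds are in these counted units, not in ChIP reads, so those of the lines are not on the same scale. Reads per library were not analysed here.

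Overlap was 1 bp or more. Curated RefSeq transcripts of GRCm38.p6, the assembly behind mm10, gave the locations. Motifs were searched in 200 bp on the peak centre and in windows 2000 bp away. Shares have 95% Wilson intervals and differences Newcombe intervals, compared by two-sided Fisher's exact tests with Benjamini-Hochberg adjustment. Differences within deciles of fold used the Mantel-Haenszel method. Intervals cover counting error only.

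Named genes were the nearest to the 6 highest scores per distance class, up to 3 per gene list by fold, genes central to the study, the 3 widest members, runs of 3 or more, the edges of the rule, and the 3 highest KLF-only members. Cdh1, the leading promoter, CTCF and X members, and the genes without EpiSC peaks nearby were chosen after their values were seen. Some named items are not reported here. Members and lists were chosen with earlier results of these data known. The alternatives covered overlap, score, window, motif, promoter and gene distance. Scripts were tested on simulated data. Python 3.11.15, scipy 1.17.1, pysam 0.24.0 and bedtools 2.31.1 were used.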

Additional observations from a re-analysis of the deposited data

How the results depend on the processing

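No paired analysis was possible because only 1 peak list per line was used, which also left no replicate to leave out. The number of kEpiSC-only peaks was 2444 against EpiSC peaks at or above the median score, 451 among kEpiSC peaks at or above their median score, and 1204 to 1922 under the other definitions of overlap. Without 10 members over 5 times the median background it was 1447. The number of genes with a member was 420 within 5 kb of a TSS, 2027 within 50 kb and 1248 by the nearest TSS. The lower AP-1 share than in shared peaks kept its direction in all 10 alternatives (−22.5 to −4.44 points) and missed the threshold only in the upper 4 deciles of fold (−4.44). The excess over EpiSC-only peaks was −1.22 points within strata of solved reads (Mantel-Haenszel chi-square p = 0.388) and 2.50 within 50 bp of the summit. The promoter excess passed in all 5 alternatives (4.04 to 11.5 points), as did the AP-1 difference by distance in all 4 (14.4 to 24.4). The KLF difference passed in none of 7 (−1.14 to 0.22). Without promoters the ETS difference was −0.093 points. The causes were not tested. Chosen after seeing the data were the alternatives without high background, in the upper 4 deciles, on chromosome shares and on single motifs other than AP-1, and, for the AP-1 difference by distance, those within deciles and without promoters. The AP-1 difference from shared peaks with both of these together (−7.56 points) was added then too. With 7 reads the fewest in a kEpiSC peak and 5 in an EpiSC peak, a missing peak says that none was called at this depth, not that c-Jun was absent.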
